A study of Mus musculus with 6 samples.

Results

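The genes described are 41 transport genes of epithelial cells: the channels, pumps, carriers and water channels that move ions and water across the cell membrane, with some of their accessory subunits. They were chosen by name, with earlier results of these data known. Every probe set of the array whose annotation names 1 of them alone was taken. Of 18193 genes named alone by a probe set, these are 41, read by 90 probe sets, with 1 to 6 probe sets per gene.

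The cells are 393P, a mouse lung cancer cell line, grown in RPMI with fetal bovine serum. In the control vector group (3 arrays) the cells stably carried the empty pcDNA vector. In the Zeb1 vector group (3 arrays) they had been made to express Zeb1 stably and constitutively, Zeb1 being a zinc-finger transcription factor that represses genes of the epithelial state. Each array read total RNA of 1 of the triplicate cultures of a group. The labels do not say how many clones or transfections a group rests on, so p-values here cover the spread between cultures only.

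Epithelia move salt and water in a set direction because channels and carriers are sorted to opposite faces of the cell. The sodium-potassium pump sets the gradients, potassium channels recycle potassium and set the voltage, and sodium enters through the epithelial sodium channel or through carriers. Chloride enters with sodium and potassium on a basolateral cotransporter and leaves through apical anion channels, and water follows through aquaporins. In the lung this balance sets the depth of the liquid film on airways and alveoli.

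The values are log2 signals of the deposited table. Any signal under the 25th percentile of the whole table (log2 4.45), here called the floor, was raised to that value. Probe sets at or above the array median on 3 or more arrays were tested, and the brightest tested probe set stood for a gene. Rose and fell are used only where limma's moderated test, adjusted by the Benjamini-Hochberg method over all 11893 tested genes, gave p under 0.05. A change is the Zeb1 vector mean minus the control vector mean on the log2 scale, with its moderated standard error (SE). A fold is written as at least N-fold where an array of the lower group was at the floor, or where that group's mean lay below the pooled 50th percentile (6.32).

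On its brightest probe set Zeb1 had a mean of 4.47 on the control vector arrays, 2 of them at the floor, and read 9.71, 9.59 and 9.78 on the Zeb1 vector arrays. Across the tested probe sets, which are not independent replicates, pairs of arrays within a group had r = 0.979 to 0.984, and pairs between groups 0.867 to 0.873. Of the 6 epithelial markers Krt18 and Krt19 were not called and Krt8 fell slightly, with a change of -0.16 (adjusted p = 0.0112 by limma). Group means of these keratins lay between 13.42 and 14.72. The other 3 fell far: Krt7 from 14.33 to 6.01, Epcam from 13.72 to 6.66 and Cdh1 from 14.18 to 10.17. The mesenchymal markers Vim, Cdh2 and Fn1 rose by 2.86, 4.89 and 1.14. Of the 6 lung markers Sftpb had means of 8.08 in control vector and 8.44 in Zeb1 vector cells, and the other 5 (Nkx2-1, Scgb1a1, Sftpc, Sftpa1 and Foxj1) had group means between 4.63 and 6.36. Sftpb, Sftpc and Sftpa1 were tested and not called, and the other 3 were too dim to test. The 6 blood cell markers and 3 endothelial markers with a probe set had group means of 4.45 to 6.30 and 4.45 to 5.99. The 4 fibroblast markers (Pdgfra, Dcn, Lum and Col1a1) had group means of 4.66 to 5.96 and were too dim to test.

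Promoter windows are shown first for 5 members that changed by more than 2-fold, as 3 that fell and 2 that rose. They are RefSeq windows from 250 bases before to 50 bases after an annotated start, on the gene's own strand. Capitals mark CAGGTG or CACCTG, which are 1 motif read on either strand, the E-box bound by the zinc fingers of Zeb proteins.
Kcnk1 (GRCm38.p6, chr8:125994852-125995151, plus strand): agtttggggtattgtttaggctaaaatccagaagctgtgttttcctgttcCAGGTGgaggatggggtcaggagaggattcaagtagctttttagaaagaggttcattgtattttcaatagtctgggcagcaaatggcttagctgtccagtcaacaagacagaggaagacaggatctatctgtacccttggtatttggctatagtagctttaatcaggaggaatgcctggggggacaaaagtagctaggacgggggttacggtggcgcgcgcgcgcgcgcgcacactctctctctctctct
Aqp5 (GRCm38.p6, chr15:99590778-99591077, plus strand): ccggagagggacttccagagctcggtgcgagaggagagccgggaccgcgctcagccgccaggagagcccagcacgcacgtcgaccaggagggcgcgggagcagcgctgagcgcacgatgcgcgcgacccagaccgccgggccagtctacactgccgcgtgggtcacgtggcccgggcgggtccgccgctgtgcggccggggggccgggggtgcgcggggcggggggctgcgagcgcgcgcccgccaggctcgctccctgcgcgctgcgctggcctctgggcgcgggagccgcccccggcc
Fxyd3 (GRCm38.p6, chr7:31076648-31076947, minus strand): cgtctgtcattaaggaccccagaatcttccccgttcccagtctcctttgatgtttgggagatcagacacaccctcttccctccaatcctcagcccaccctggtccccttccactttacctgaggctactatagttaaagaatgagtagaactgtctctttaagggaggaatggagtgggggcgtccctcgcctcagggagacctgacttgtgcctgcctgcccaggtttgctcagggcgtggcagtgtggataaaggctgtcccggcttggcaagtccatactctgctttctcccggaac
Fxyd5 (GRCm38.p6, chr7:31042282-31042581, minus strand): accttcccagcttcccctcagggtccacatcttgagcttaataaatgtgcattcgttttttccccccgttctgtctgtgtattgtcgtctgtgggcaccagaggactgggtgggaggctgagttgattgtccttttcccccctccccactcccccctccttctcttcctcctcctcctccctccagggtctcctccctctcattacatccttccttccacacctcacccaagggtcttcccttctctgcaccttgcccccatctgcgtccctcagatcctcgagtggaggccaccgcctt
Slc12a7 (GRCm38.p6, chr13:73763410-73763709, plus strand): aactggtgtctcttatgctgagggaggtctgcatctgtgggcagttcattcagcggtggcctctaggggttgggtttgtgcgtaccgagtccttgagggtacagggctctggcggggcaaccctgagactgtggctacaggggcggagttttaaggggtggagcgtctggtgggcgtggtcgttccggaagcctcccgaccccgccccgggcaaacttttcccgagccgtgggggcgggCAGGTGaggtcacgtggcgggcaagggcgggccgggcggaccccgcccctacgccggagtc
The motif starts 200 bases before the annotated start of Kcnk1 and 11 before that of Slc12a7 shown here. A second, overlapping window of Slc12a7 holds the same site 48 bases before its start. These letters are not in the windows shown for Aqp5, Fxyd3 and Fxyd5. They are also absent from the windows of Kcnk5 and Kcnn4, which changed by more than 2-fold too and are not shown.

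The RefSeq windows used here number 44, for 34 of the 41 members. The motif was in 15 of the 44 windows (34.1%), against 6639 of 32850 windows of all genes (20.2%). The overlapping windows of Slc12a7, which hold the same site, are counted separately among the 15. Among members that fell it was in the windows of 5 of 11 genes, namely Kcnk1, Ano1, Aqp3, Clcn3 and Slc4a4. Among those that rose it was in 2 of 5, Slc12a7 and Atp1b3, among those tested and not called in 1 of 6, and among members too dim to test in 6 of 12. By gene the share was 41.2% of members with a window (14 of 34), against 22.6% of all genes with a window. It was 23.9% of genes called lower and 19.1% of genes called higher. The looser E-box CANNTG, which includes the motif, was in 81.8% of the members' windows and 72.3% of all windows. A match describes the letters of a window and says nothing of binding there.

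Of the 41 members 28 could be tested, and of these 13 fell, 7 rose and 8 were not called. Channels mostly fell: 11 of 17 tested channels fell and 1, the calcium-activated potassium channel Kcnn4, rose. The chloride-proton exchangers Clcn3 and Clcn5 are counted by family among these channels, and both fell. Of 5 tested pump subunits 2 rose and 1 fell, and of the 6 carriers and their scaffold 4 rose and 1 fell. The largest fall was that of the potassium leak channel Kcnk1, at least 253-fold, and the largest rise that of the sulfate carrier Slc26a2, 13.2-fold. These are changes in RNA per array, so fewer cells that carry a transcript and less of it per cell cannot be told apart.

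Over all tested genes 50.5% were called, 26.4% higher and 24.1% lower. Of the tested members 71.4% were called, and 46.4% were called lower. Changes of at least 2-fold were called in 4 members that rose and 6 that fell, where the shares over all tested genes were 9.01% and 6.8%. The arrays of the 2 groups did not overlap for 21 of the 28 tested members, against 58.2% of all tested genes. The median change was -0.20 over the tested members and 0.01 over all tested genes. Kcnk1 and Clic3 passed the filter through control vector arrays alone, so they could only differ. The members were also chosen with earlier results of these data known. The counts over tested members are therefore descriptions and no test of transport genes against all genes.

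**Figure D1:**
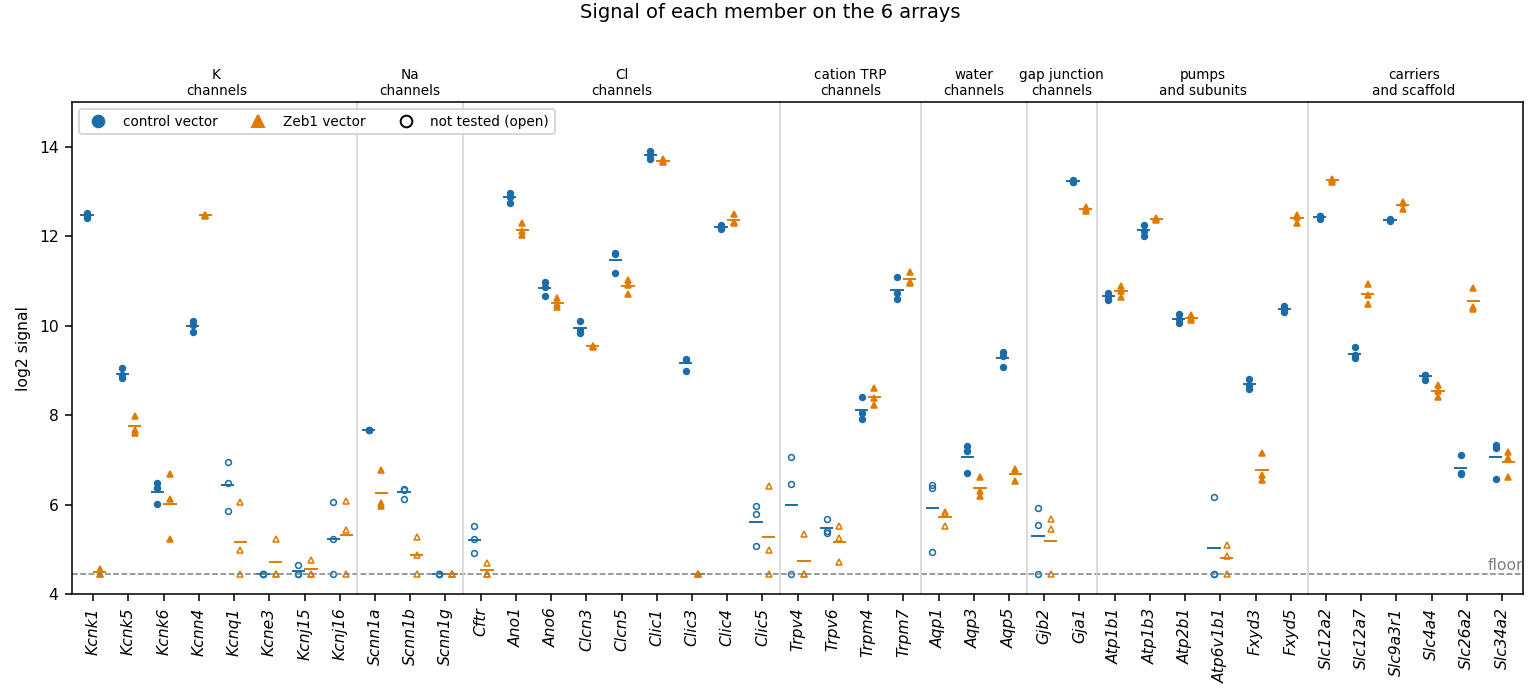
Log2 signal (vertical axis) of each of the 41 members on the 3 control vector arrays (circles) and the 3 Zeb1 vector arrays (triangles), by role; short lines are group means, open symbols are members below the filter, and the dashed line is the floor at 4.45. For a gene with several probe sets the one that stands for it, or else the brightest, is drawn. Kcnk1 and Clic3 drop to the floor or next to it in Zeb1 vector cells, while Slc26a2, Kcnn4 and Fxyd5 lie higher there on every array.

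Potassium channels held the largest fall and one of the largest rises. Kcnk1, a leak channel of the tandem-pore family, read 12.53, 12.41 and 12.47 on the control vector arrays and 4.57, 4.45 and 4.45 on the Zeb1 vector arrays. The control vector arrays lay within 0.114 of each other, and 2 of the 3 Zeb1 vector arrays were at the floor. The log2 change of -7.98 (SE 0.116, adjusted p = 8.93e-11) is a bound that moves with the floor. It was -6.15 when the 50th percentile served as floor and -8.40 without one. Kcnk1 passed the filter through control vector arrays alone, so it could only differ and its adjusted p is a description. Its second probe set read 11.21, 10.90 and 11.24 on the control vector arrays and 4.94, 4.45 and 4.45 on the Zeb1 vector arrays, with the same 2 Zeb1 vector arrays at the floor. That probe set too passed the filter through control vector arrays alone.

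Kcnk5, an alkaline-activated relative of Kcnk1, read 8.83, 9.06 and 8.90 on the control vector arrays and 7.68, 7.61 and 7.99 on the Zeb1 vector arrays. All Zeb1 vector arrays lay below all control vector arrays, and the change of -1.17 (SE 0.144, adjusted p = 8.05e-05) made it 2.25-fold lower. Its other probe set was too dim to test and read 6.22, 6.38 and 6.24 on the control vector arrays and 4.45, 4.45 and 5.78 on the Zeb1 vector arrays, lower in Zeb1 vector cells too. Another tandem-pore channel, Kcnk6, read 6.37, 6.02 and 6.47 on the control vector arrays and 6.13, 6.69 and 5.23 on the Zeb1 vector arrays. These values overlap around the filter's limit, and the change of -0.27 (SE 0.388, adjusted p = 0.602) was not called.

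Kcnn4, which opens when cell calcium rises and hyperpolarises the membrane, read 9.87, 10.02 and 10.12 on the control vector arrays and 12.48, 12.46 and 12.47 on the Zeb1 vector arrays. The Zeb1 vector arrays lay within 0.025 of each other and far above the control vector arrays. The rise of 2.47 (SE 0.0769, adjusted p = 5.09e-09) was 5.54-fold, from 10.00 ± 0.125 to 12.47 ± 0.013 (SD, n = 3 each). Its second probe set rose by 2.40 (adjusted p = 4.9e-08 over all probe sets). Kcnn4 was thus the single member among the tested channels that rose.

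The other 4 potassium channel genes were not tested. Kcnq1, a basolateral channel of secretory epithelia, read 6.49, 6.96 and 5.87 on the control vector arrays and 6.07, 4.45 and 4.99 on the Zeb1 vector arrays. The highest Zeb1 vector array lay above the lowest control vector array. Kcne3, its accessory subunit, was at the floor on 5 of the 6 arrays and read 5.24 on Zeb1 vector replicate 1. Of the inward rectifiers, Kcnj15 was at or next to the floor on all 3 probe sets, with no array above 4.76. Kcnj16 was at the floor on all 6 arrays on 1 probe set and read 4.45, 5.22 and 6.05 on the control vector arrays and 5.42, 4.45 and 6.07 on the Zeb1 vector arrays on the other. None of these 4 genes passed the filter, and with no filter Kcnq1 had a change of -1.27 (adjusted p = 0.158 by limma over 18193 genes).

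The epithelial sodium channel, the apical entry step of sodium absorption, is made of an alpha, a beta and a gamma subunit. The alpha subunit Scnn1a read 7.66, 7.68 and 7.68 on the control vector arrays and 6.78, 6.02 and 5.97 on the Zeb1 vector arrays. The control vector arrays were nearly identical and the Zeb1 vector arrays were all lower, with replicate 1 above the other 2. Its level was at least 2.67-fold lower (change -1.42, SE 0.251, adjusted p = 0.000912), from 7.67 ± 0.0084 to 6.26 ± 0.452 (SD, n = 3 each). The beta subunit Scnn1b missed the filter and read 6.34, 6.35 and 6.13 on the control vector arrays and 5.29, 4.45 and 4.88 on the Zeb1 vector arrays, so its groups did not overlap either. With no filter Scnn1b had a change of -1.40 (adjusted p = 0.0112 by limma over 18193 genes). The gamma subunit Scnn1g was at the floor on all 6 arrays. In gene order Scnn1b and Scnn1g are next to each other, with 0 protein-coding genes between them.

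Chloride channels, with the exchangers Clcn3 and Clcn5 counted among them, fell or were not called, 5 and 2 of the 7 tested. Clic3, of the chloride intracellular channel family, read 8.98, 9.26 and 9.24 on the control vector arrays and 4.45, 4.45 and 4.45 on the Zeb1 vector arrays. Clic3 passed the filter through control vector arrays alone, so it could only differ and its adjusted p is a description. All 3 Zeb1 vector arrays were at the floor, which puts Clic3 at least 26.3-fold down (log2 change -4.71, adjusted p = 5.36e-08). This change follows the floor, being -2.84 when the 50th percentile served as floor and -5.67 without one. Its relatives behaved otherwise. Clic1 read 13.92, 13.73 and 13.82 on the control vector arrays and 13.65, 13.68 and 13.74 on the Zeb1 vector arrays, with overlapping groups, and its change of -0.13 (SE 0.0568, adjusted p = 0.0772) was not called. The call was gained without control vector replicate 2 (change -0.18, adjusted p = 0.0207) and under quantile normalization, and the adjusted p ranged from 0.0207 to 0.215 over its 13 alternatives. Clic4 had a change of 0.17 (SE 0.0704, adjusted p = 0.0673) and changes of 0.031 and 0.085 on its other 2 probe sets, none of them called. It was called under quantile normalization alone, and its adjusted p ranged from 0.0207 to 0.407 over 13 alternatives. Clic5 was not tested, and none of its 4 probe sets read above 6.42 on any array.

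Ano1, the calcium-activated chloride channel of secretory epithelia, read 12.98, 12.89 and 12.76 on the control vector arrays and 12.12, 12.04 and 12.29 on the Zeb1 vector arrays. Every Zeb1 vector array was below every control vector array, and the change of -0.72 (SE 0.0805, adjusted p = 3.96e-05) made it 1.65-fold lower. Its other probe set fell by 0.95 (adjusted p = 0.000245 over all probe sets). Ano6, a relative that scrambles membrane lipids, fell by 0.33 (SE 0.0974, adjusted p = 0.018) and by 0.32 on its second probe set. That call was lost without control vector replicate 1 (adjusted p = 0.0573) or 2 (0.063), without Zeb1 vector replicate 1 (0.0548) or 2 (0.0719) and with no filter (0.0755), and the adjusted p ranged from 0.00801 to 0.0755 over 13 alternatives.

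The chloride-proton exchangers Clcn3 and Clcn5, which serve endosomes, fell by small amounts. Clcn3 read 9.84, 9.90 and 10.12 on the control vector arrays and 9.55, 9.54 and 9.53 on the Zeb1 vector arrays and fell by 0.41 (SE 0.0973, adjusted p = 0.0051). Of its 5 tested probe sets 4 were called, all lower, with changes of -0.64 to -0.41. Clcn5 read 11.60, 11.62 and 11.18 on the control vector arrays and 11.03, 10.70 and 10.92 on the Zeb1 vector arrays and fell by 0.58 (SE 0.126, adjusted p = 0.00319), with 3 of its 4 probe sets called. The groups did not overlap on the probe sets that stand for these genes, and both of those carry the x_at suffix, which the array's maker gives to probe sets whose probes can match other transcripts. Cftr, the cyclic AMP-regulated anion channel, was in the background. On 1 probe set it was at the floor on all arrays, and on the other it read 4.92, 5.22 and 5.51 on the control vector arrays and 4.69, 4.45 and 4.45 on the Zeb1 vector arrays.

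The tested TRP cation channels among the members were not called. Trpm4, which passes sodium when calcium rises, read 7.91, 8.40 and 8.05 on the control vector arrays and 8.23, 8.61 and 8.39 on the Zeb1 vector arrays, with overlapping groups and a change of 0.29 (SE 0.166, adjusted p = 0.181). Trpm7, a magnesium-permeable channel fused to a kinase, had a change of 0.24 (SE 0.123, adjusted p = 0.142) and changes of -0.044 to 0.22 on its other 3 probe sets. It was called higher without control vector replicate 2 (0.38, adjusted p = 0.0121), and its adjusted p ranged from 0.0121 to 0.525 over 13 alternatives. Trpv4, an osmosensitive calcium channel, was not tested and read 6.46, 7.07 and 4.45 on the control vector arrays and 4.45, 4.45 and 5.35 on the Zeb1 vector arrays. Its 3 control vector arrays ran from the floor to above the filter's limit. The calcium uptake channel Trpv6 was dim in both groups, between 4.72 and 5.69.

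Among the members, the water channels that could be tested, Aqp5 and Aqp3, fell. Of the other aquaporins tested, Aqp8 fell, with a change of -0.27 (adjusted p = 0.0242 by limma). Aqp2, Aqp4, Aqp6, Aqp9 and Aqp11 were not called. Aqp5, the apical aquaporin of glands and of alveolar type I cells, read 9.31, 9.42 and 9.09 on the control vector arrays and 6.52, 6.75 and 6.79 on the Zeb1 vector arrays. The groups were far apart and neither touched the floor, and Aqp5 was 6.03-fold lower, with a change of -2.59 (SE 0.154, adjusted p = 4.37e-07). Aqp3, a basolateral channel for water and glycerol, read 6.71, 7.19 and 7.31 on the control vector arrays and 6.63, 6.18 and 6.30 on the Zeb1 vector arrays on its brightest probe set. The groups did not overlap, with the nearest arrays 0.081 apart, and the change was -0.70 (SE 0.253, adjusted p = 0.0418). This call was lost without control vector replicate 2 (adjusted p = 0.117) or 3 (0.135), without Zeb1 vector replicate 2 (0.11) or 3 (0.0887), with no floor (0.0502), with no filter (0.0873) and with a replicate block (0.0724). The adjusted p ranged from 0.0171 to 0.135 over 12 alternatives. The other 3 probe sets of Aqp3 were in the background. Aqp1, the aquaporin of vessels and proximal tubule, was not tested and read 4.95, 6.36 and 6.44 on the control vector arrays and 5.53, 5.79 and 5.84 on the Zeb1 vector arrays, with overlapping groups.

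Gap junction channels join the cytoplasm of neighbouring cells. Gja1, the most widely expressed connexin, read 13.27, 13.22 and 13.22 on the control vector arrays and 12.62, 12.56 and 12.66 on the Zeb1 vector arrays. The Zeb1 vector arrays were all lower, and the change of -0.62 (SE 0.052, adjusted p = 5.39e-06) made it 1.54-fold lower, from 13.23 ± 0.028 to 12.61 ± 0.052 (SD, n = 3 each). Of its 6 tested probe sets 5 were called, all lower, with changes of -1.20 to -0.62. The probe set that stands for Gja1 also carries the x_at suffix, so its probes can match other transcripts. The probe sets without that suffix had changes of -0.70 and -1.06. The remaining probe set read 8.58, 8.26 and 9.18 on the control vector arrays and 8.12, 8.81 and 8.61 on the Zeb1 vector arrays, with overlapping groups. Gjb2, a connexin of many epithelia, was in the background with readings from the floor to 5.93.

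**Figure D2:**
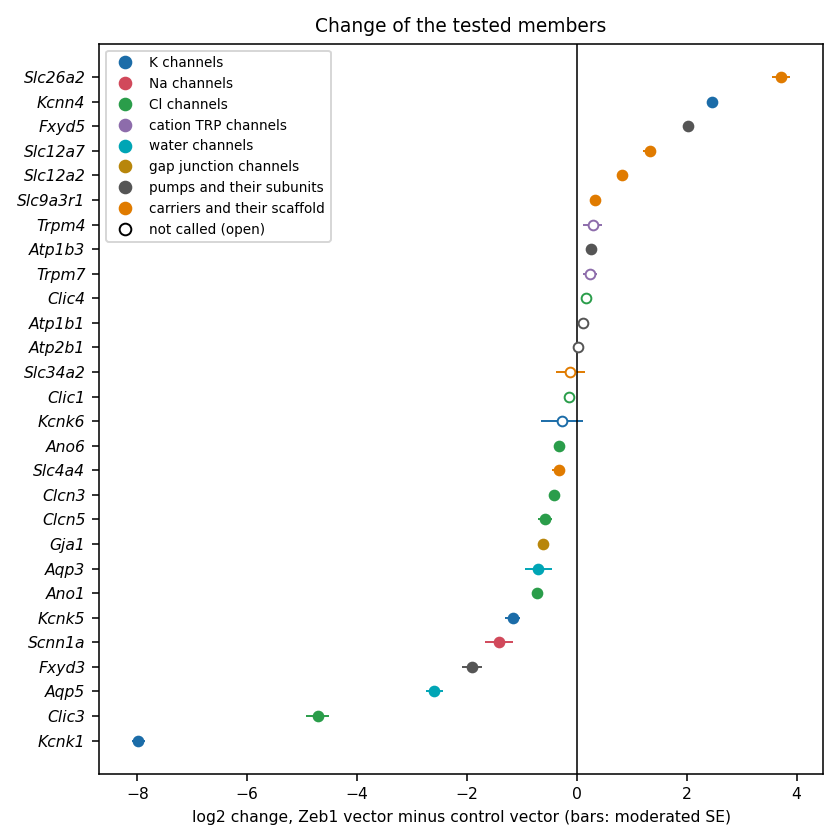
Change of the 28 tested members on the log2 scale (horizontal axis, Zeb1 vector mean minus control vector mean, 3 arrays each), ordered by size and coloured by role; bars are moderated SE and open points were not called. Called channels, among which the exchangers Clcn3 and Clcn5 are counted, fill most of the lower side, from -7.98 for Kcnk1 to -0.33 for Ano6. Of the 7 called points on the upper side 4 are carriers or their scaffold, with Slc26a2 at 3.72.

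Among the members' tested pump subunits, changes were small in Atp1b1, Atp1b3 and Atp2b1 and larger in the regulators Fxyd3 and Fxyd5. The sodium-potassium pump needs a beta subunit to reach the membrane. Atp1b1 had a change of 0.11 (SE 0.0856, adjusted p = 0.32) and was not called. Its 4 tested probe sets ranged from -0.37 to 0.29, and 1 of them was called higher (adjusted p = 0.0493 over all probe sets). Atp1b3 read 12.26, 12.01 and 12.13 on the control vector arrays and 12.40, 12.39 and 12.36 on the Zeb1 vector arrays and rose by 0.25 (SE 0.0708, adjusted p = 0.0126), a 1.19-fold change. Without the filter it was no longer called (adjusted p = 0.0533, and 0.0031 to 0.0533 over 13 alternatives). The plasma membrane calcium pump Atp2b1 had a change of 0.021 (SE 0.0867, adjusted p = 0.871). The proton pump subunit Atp6v1b1, known from acid-secreting cells, was not tested and read 4.45, 4.45 and 6.17 on the control vector arrays and 5.09, 4.45 and 4.86 on the Zeb1 vector arrays.

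Fxyd3 and Fxyd5 encode small membrane proteins of 1 family that tune the sodium-potassium pump, and they changed in opposite directions. Fxyd3 read 8.60, 8.80 and 8.68 on the control vector arrays and 7.15, 6.55 and 6.65 on the Zeb1 vector arrays. The groups were well apart, and Fxyd3 was 3.76-fold lower, from 8.69 ± 0.105 to 6.78 ± 0.321 (SD, n = 3 each) (SE 0.188, adjusted p = 1.63e-05). Fxyd5, also called dysadherin and known for weakening adhesion between epithelial cells, read 10.45, 10.37 and 10.30 on the control vector arrays and 12.43, 12.48 and 12.31 on the Zeb1 vector arrays. Here every Zeb1 vector array was higher, and Fxyd5 was 4.09-fold higher, from 10.37 ± 0.075 to 12.41 ± 0.086 (SD, n = 3 each) (SE 0.0731, adjusted p = 1.35e-08). In gene order they lie close together, with 3 protein-coding genes between them. Each was read by 1 probe set. Of the same family Fxyd1 and Fxyd4 were tested and not called, with changes of -0.44 and -0.29 (adjusted p = 0.324 and 0.314 by limma).

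Of the 6 carriers and their scaffold 4 rose and 1 fell, where 26.4% of all tested genes were called higher and 24.1% lower. The scaffold Slc9a3r1 is among those that rose. The exchangers Clcn3 and Clcn5, which fell, are counted with the channels and not here. Slc26a2, which imports sulfate used to sulfate proteoglycans, read 7.10, 6.69 and 6.70 on the control vector arrays and 10.38, 10.42 and 10.85 on the Zeb1 vector arrays on the probe set that stands for it. The nearest arrays of the 2 groups were 3.28 apart, and the rise of 3.72 (SE 0.166, adjusted p = 5.85e-08) was 13.2-fold. A second probe set read 6.38, 5.64 and 5.87 on the control vector arrays and 10.91, 10.78 and 11.18 on the Zeb1 vector arrays and was at least 31.8-fold higher. The last read 5.25, 4.45 and 4.45 on the control vector arrays and 6.73, 7.48 and 8.09 on the Zeb1 vector arrays and was at least 6.58-fold higher, with 2 control vector arrays at the floor. This last probe set passed the filter through Zeb1 vector arrays alone, so it could only differ and its fold is a description. The probe set that stands for the gene and the second both rose, by amounts that differ.

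Of the cation-chloride cotransporters, Slc12a2 carries sodium, potassium and chloride in and is the main basolateral chloride entry of secretory cells. It read 12.45, 12.47 and 12.39 on the control vector arrays and 13.28, 13.22 and 13.26 on the Zeb1 vector arrays. The control vector arrays lay within 0.076 of each other and the Zeb1 vector arrays within 0.057, and the rise of 0.82 (SE 0.0512, adjusted p = 6.41e-07) was 1.76-fold. Its other 2 probe sets rose by 0.79 and 0.68. Slc12a7, which carries potassium and chloride out, read 9.28, 9.51 and 9.34 on the control vector arrays and 10.48, 10.68 and 10.94 on the Zeb1 vector arrays. All Zeb1 vector arrays were higher, and the rise of 1.32 (SE 0.123, adjusted p = 1.1e-05) was 2.5-fold, or 2.21-fold on its second probe set. The inward and the outward cotransporter therefore both rose.

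Slc4a4, the sodium-bicarbonate cotransporter, read 8.79, 8.91 and 8.91 on the control vector arrays and 8.42, 8.53 and 8.67 on the Zeb1 vector arrays on its brightest probe set. The change of -0.33 (SE 0.117, adjusted p = 0.0388) was small there, and the other 3 tested probe sets had changes of -1.16 to -0.57, all called. With the mean of probe sets the change was -0.73 (adjusted p = 0.00377). On the brightest probe set the call was lost without control vector replicate 1 (adjusted p = 0.0532), 2 (0.0854) or 3 (0.0981), without Zeb1 vector replicate 1 (0.129) or 2 (0.0907) and with a replicate block (0.0551), and its adjusted p ranged from 0.0165 to 0.129 over the 12 alternatives that keep that probe set. Slc9a3r1, a PDZ scaffold that anchors apical carriers and Cftr, read 12.35, 12.40 and 12.37 on the control vector arrays and 12.61, 12.77 and 12.75 on the Zeb1 vector arrays and rose by 0.33 (SE 0.0602, adjusted p = 0.000994). Another of its probe sets rose by 0.36. The last had overlapping groups and a change of 0.22, which was not called (adjusted p = 0.134 over all probe sets). Slc34a2, the sodium-phosphate carrier of alveolar type II cells, read 7.27, 6.58 and 7.33 on the control vector arrays and 7.18, 7.05 and 6.61 on the Zeb1 vector arrays, with overlapping groups and a change of -0.11 (SE 0.265, adjusted p = 0.755).

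**Figure D3:**
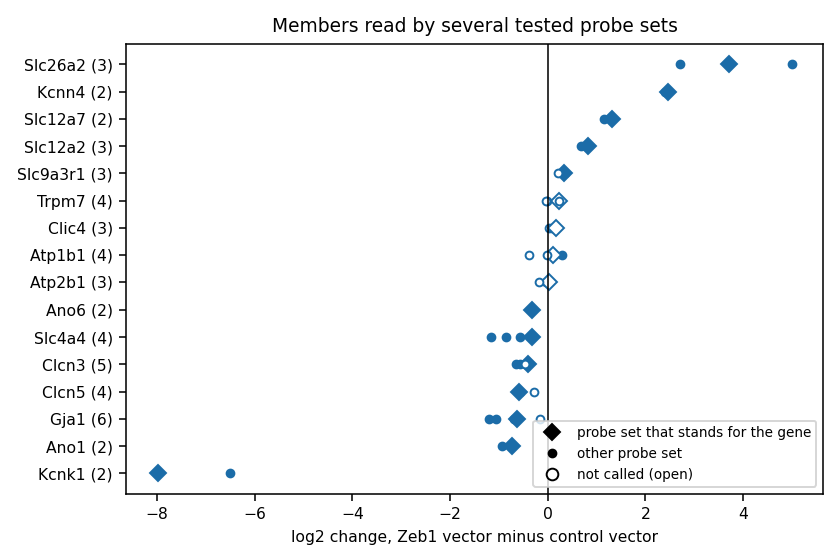
Change on the log2 scale (horizontal axis, Zeb1 vector minus control vector) of every tested probe set of the 16 members read by several, with the number of tested probe sets in brackets; diamonds are the probe sets that stand for a gene, circles the others, and open symbols were not called over all probe sets. Called probe sets of a gene lie on the same side of 0, and the spread is widest for Slc26a2 and Kcnk1.

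Probe sets of 1 gene mostly gave the same call. Of the 16 members with several tested probe sets, 8 had every probe set called the same way, 3 had none called, and 5 had some called, all in 1 direction, and some not. Both probe sets of Kcnk1 and the dimmest of Slc26a2 passed the filter through arrays of 1 group alone, so they could only differ. Over the members' 64 tested probe sets 28 were called lower and 15 higher. Of all 20594 tested probe sets 46.1% were called, 21.6% lower and 24.5% higher. The remaining 26 probe sets were not tested, 20 of them from the 13 untested members, and 6 were at the floor on all 6 arrays. No untested member read above 7.07 on any array. Within-group SDs of the tested members had medians of 0.122 in control vector cells and 0.124 in Zeb1 vector cells.

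Other genes of ion transport were taken by family as a list of 216, leaving out the members. Of 188 with a probe set 104 were tested: 22 rose, 24 fell and 58 were not called, which is 44.2% called against 50.5% of all tested genes. Their median change was -0.05. Among 47 other channels 10 rose and 6 fell, of which 9 and 1 by at least 2-fold. The largest rises were those of the connexin Gjc1 (10.6-fold, adjusted p = 2.81e-09), the voltage-gated potassium channel Kcnq5 (at least 6.05-fold) and the irritant-gated cation channel Trpa1 (at least 5.43-fold). The largest falls were those of the calcium release channel Itpr3 (2.39-fold), the potassium channel Kcnh2 (1.999-fold) and the volume-regulated anion channel subunit Lrrc8d (1.63-fold). Gjc1 rose while Gja1 fell; Kcnq5 rose from near the floor while Kcnq1 was too dim to test.

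Among 25 other pump subunits 5 rose and 7 fell, most by less than 2-fold. Atp2c2, a Golgi calcium and manganese pump of secretory epithelia, was at least 17.7-fold lower, while its relative Atp2c1 rose by 0.30. The proton pump subunit Atp6v0a1 fell by 0.90 and the muscle-type calcium pump Atp2a1 by 0.79. The reticulum calcium pump Atp2a2 rose by 0.36 and the proton pump subunit Atp6v1b2 by 0.28. Among 15 other carriers 4 rose and 4 fell. The sodium-proton exchanger Slc9a2 was 4.63-fold higher, the kidney-type cotransporter Slc12a1 at least 4.31-fold and the calcium exchanger Slc24a3 2.23-fold. The proton and borate-linked carrier Slc4a11 was 12.3-fold lower (adjusted p = 1.12e-09), and the bicarbonate carrier Slc4a8 and the exchanger Slc9a8 fell by 0.79 and 0.75.

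Of 17 tested genes that act on these carriers and channels 3 rose and 7 fell. St14 and Prss8, membrane proteases known to activate the epithelial sodium channel, were at least 96.7-fold and at least 22.5-fold lower, and their inhibitor Spint1 was 30.9-fold lower. The kinases Stk39 and Wnk4, which phosphorylate the cation-chloride cotransporters or their activators, were at least 6.55-fold and at least 5.94-fold higher. Sgk1, a kinase that keeps the sodium channel at the membrane, rose by 0.32. Beside them stand the lower Scnn1a and the higher Slc12a2 and Slc12a7 of the same arrays, and a link between these changes was not tested. Of the 104 other transport genes tested 8 passed the filter through arrays of 1 group alone, so they could only differ and their folds are descriptions. These are Atp2c2, St14, Prss8 and Tmprss2, which passed on control vector arrays, and Kcnq5, Slc12a1, Stk39 and Wnk4, which passed on Zeb1 vector arrays.

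**Figure D4:**
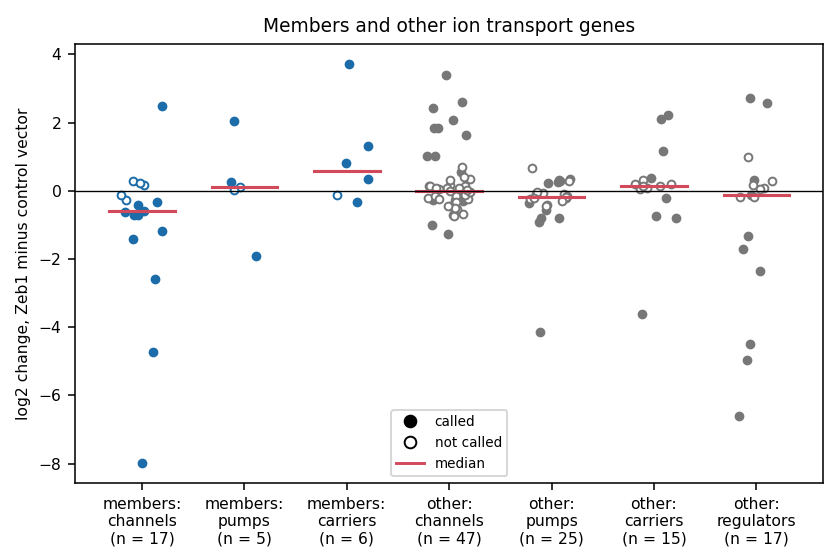
Change on the log2 scale (vertical axis, Zeb1 vector minus control vector) of the tested members by role and of the other ion transport genes by kind; each point is a gene, open points were not called, red lines are medians and horizontal scatter is for display. The member channels (Clcn3 and Clcn5 included) have a median of -0.58 and the 47 other channels one of -0.01. The regulators spread from -6.59 for St14 to 2.71 for Stk39.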

How the data were processed

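RNA of 393P cells was read on 6 Affymetrix arrays, 3 per group. The deposited values are log2 signals for 45101 probe sets; MAS5 is named in the submitters' processing notes, with no version in the sources used here. Out of log2, each array's mean with 2% trimmed from each end was 500 to 500.2, so the authors' arrays share 1 scale. The 2 missing values were set to the floor (25th percentile of all values, log2 4.45). Symbols came from the platform annotation, matched by Entrez identifier to RefSeq of GRCm38.p6 (34741 of 34945 probe sets with 1 symbol, 0 changed); 932 with several symbols, 9160 with none and 64 controls were left out. The filter (array median on at least 3 arrays) passed 20594 probe sets of 11893 genes. Groups were compared with limma 3.58.1 in R 4.3.3 (lmFit, eBayes with trend; tested on simulated data). With 3 arrays per group their number sets the precision (median SE 0.129). The members and lists were chosen with earlier results of these data known. Named were all members, the other tested aquaporins and Fxyd genes and, per kind of other transport genes, the 3 largest called changes in each direction. Alternatives changed the floor, filter, normalization, probe set rule and block, or left out an array with the tested probe sets kept. Replicate numbers did not pair the arrays. Promoters are RefSeq's of GRCm38.p6; where no window was in that table, none was used, and 1 further window is not reported here.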

Additional observations from a re-analysis of the deposited data

How the results depend on the processing

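The counts of members called kept within 1.5 times under every alternative: 6 to 8 rose and 9 to 14 fell. Of the 20 called members 15 stayed past the threshold under each alternative that gave a value (9 lower, 6 higher), 5 lost the call under some (Ano6, Clcn5, Aqp3, Atp1b3 and Slc4a4, by limma), and 0 changed direction. Clcn5 lost it with no filter (adjusted p = 0.051, and 0.000514 to 0.051 over 13 alternatives). The stricter filter of all 6 arrays left out Kcnk1, Kcnk6, Scnn1a, Clic3 and Aqp3. With no filter Scnn1b and Cftr were called lower (adjusted p = 0.0112 and 0.042). Members that were not called changed sign as follows, and the cause was not tested. Kcnk6 had 0.057 with the floor at the 50th percentile. On other probe sets Atp1b1 had -0.37 and -0.021, Atp2b1 -0.033 and -0.18, and Trpm7 -0.023 and -0.044. With the mean of probe sets Atp2b1 had -0.064. Without 1 array Kcnk6 ranged from -0.61 to 0.12, Atp2b1 from -0.032 to 0.077 and Slc34a2 from -0.36 to 0.052. The replicate numbers of the labels did not pair the arrays: deviations of same-numbered arrays correlated at 0.0385, -0.0273 and -0.0692 over 11893 genes. With a replicate block 7 members rose and 11 fell, and 5877 of all tested genes were called against 6004. Signal near the floor limits Clic3, Kcnk1 and the 13 untested members. Low signal also limits Scnn1a and Kcnk6, with Zeb1 vector means of 6.26 and 6.02, below the pooled 50th percentile (6.32). The Zeb1 vector mean of Aqp3 (6.37) lay just above it.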
